A study of Mus musculus with 4 samples.

Results

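The E16.5-only promoter peaks of Sp9 are peaks near the start of a gene that stood in the list of embryonic day 16.5 (E16.5) and had no counterpart in the list of embryonic day 13.5 (E13.5). A peak was taken where exactly 1 named gene had its transcription start site (TSS) within 1000 bp of it. It was kept where none of the genes assigned to it had an E13.5 peak whose signed distance from the TSS differed by 200 bp or less. This left 1089 of the 6022 E16.5 peaks (18.1%, 95% Wilson interval 17.1 to 19.1), out of 11869 peaks in both lists together. They lay at 1076 genes, of which 13 had more than 1 such peak. The members were thus chosen by measured values, the TSS distances of both lists, so neither the absence from the E13.5 list nor the nearness to a TSS is a finding here.

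Chromatin of dissected basal ganglia from CD1 embryos, wild-type mice of E16.5 and of E13.5, was immunoprecipitated for Sp9 and sequenced (ChIP-seq). Each stage had 1 library made with a rabbit antibody to Sp9 and 1 input library made with none, and the peaks of each stage were called against its input. The lists give each peak as a number with its distance in bp from a gene's TSS, on build mm9, and hold no height, width, coordinate or read total. Since each stage is a single library, nothing could be tested between stages, depth is unknown, and the intervals given reflect only how many peaks or genes were counted.

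Sp9 belongs to the SP/KLF zinc finger factors and is made in the ganglionic eminences and in young striatal neurons. Factors of this family bind GC-rich elements, of which the GC box and the related CACCC box are the best known. GC boxes are common in CpG-rich promoters, the promoter type of most broadly expressed genes, while genes of 1 cell lineage often also depend on distant enhancers.

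To show the sequence at such peaks, the promoters of 9 genes are printed below from the RefSeq promoter table, build GRCm38.p6. That build is not the one of the peak lists, so the coordinates place the promoters and not the peaks. Each runs from 250 bases before the annotated start to 50 bases after it, 5′ to 3′ on the gene's own strand, and capitals mark GC boxes (GGGCGG or its reverse complement). The first 6 each come from a gene list with many E16.5-only peaks and are the list member whose peak lay nearest to its TSS. Fbxo30 encodes an F-box subunit of ubiquitin ligases, and its promoter (chr10:11281337-11281636, plus strand) held 5 GC boxes, with its peak 1 bp downstream of the TSS.
Fbxo30: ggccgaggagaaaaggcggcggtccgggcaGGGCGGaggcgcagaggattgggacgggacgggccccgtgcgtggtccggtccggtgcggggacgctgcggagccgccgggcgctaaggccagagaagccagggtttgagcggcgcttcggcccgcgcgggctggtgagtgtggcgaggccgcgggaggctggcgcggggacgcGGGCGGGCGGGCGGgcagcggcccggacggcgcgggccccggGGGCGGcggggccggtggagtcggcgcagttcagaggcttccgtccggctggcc
Slc4a3, an anion exchanger gene (chr1:75546212-75546511, plus strand), held 2 GC boxes and had its peak 10 bp downstream of the TSS.
Slc4a3: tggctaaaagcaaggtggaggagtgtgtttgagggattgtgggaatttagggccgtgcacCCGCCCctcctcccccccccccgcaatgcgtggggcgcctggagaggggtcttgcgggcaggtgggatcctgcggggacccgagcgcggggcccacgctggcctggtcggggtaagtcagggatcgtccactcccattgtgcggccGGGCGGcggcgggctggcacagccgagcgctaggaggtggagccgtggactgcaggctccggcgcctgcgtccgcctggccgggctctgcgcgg
Snx18, a sorting nexin gene of membrane traffic (chr13:113618515-113618814, minus strand), held 1 GC box and had its peak at 0 bp.
Snx18: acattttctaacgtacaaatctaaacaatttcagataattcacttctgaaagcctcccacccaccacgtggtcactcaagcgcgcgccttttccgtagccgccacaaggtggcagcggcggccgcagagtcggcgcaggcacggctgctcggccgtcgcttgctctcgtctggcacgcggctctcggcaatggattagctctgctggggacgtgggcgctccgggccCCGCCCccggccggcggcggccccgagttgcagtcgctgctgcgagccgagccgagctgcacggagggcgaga
Hdac5, a histone deacetylase gene (chr11:102230123-102230422, minus strand), held 1 GC box and had its peak 1 bp downstream.
Hdac5: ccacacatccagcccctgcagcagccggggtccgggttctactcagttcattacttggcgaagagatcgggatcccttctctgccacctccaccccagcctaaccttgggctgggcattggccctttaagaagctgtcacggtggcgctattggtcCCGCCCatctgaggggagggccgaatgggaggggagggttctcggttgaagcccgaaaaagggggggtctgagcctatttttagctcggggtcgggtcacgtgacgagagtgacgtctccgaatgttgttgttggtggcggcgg
Med4, a Mediator subunit gene (chr14:73509799-73510098, plus strand), held 1 GC box, 1 ETS core (CCGGAAG) and 1 NRF1 half-palindrome (TGCGCA), and had its peak 21 bp downstream.
Med4: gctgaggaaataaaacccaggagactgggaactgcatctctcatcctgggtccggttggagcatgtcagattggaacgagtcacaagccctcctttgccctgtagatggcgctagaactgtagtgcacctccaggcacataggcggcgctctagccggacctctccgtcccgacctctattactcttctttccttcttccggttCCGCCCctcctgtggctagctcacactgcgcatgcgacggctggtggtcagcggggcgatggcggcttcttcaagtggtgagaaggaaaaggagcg
Zbtb22, a zinc finger gene (chr17:33915926-33916225, plus strand), held no GC box in this window, with its peak 17 bp downstream.
Zbtb22: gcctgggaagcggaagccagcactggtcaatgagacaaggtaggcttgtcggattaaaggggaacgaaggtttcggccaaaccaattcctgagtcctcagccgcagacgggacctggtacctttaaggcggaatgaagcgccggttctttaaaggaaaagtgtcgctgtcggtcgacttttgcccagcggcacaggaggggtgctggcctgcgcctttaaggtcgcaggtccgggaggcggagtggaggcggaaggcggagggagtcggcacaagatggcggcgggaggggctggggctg
The next 3 were chosen after their values were seen, because they stand in the gene lists of striatal neurons. Six3, a homeobox regulator of D2-type medium spiny neurons (chr17:85620584-85620883, plus strand), held no GC box and 3 CCAAT boxes, with its peak 5 bp upstream of the TSS.
Six3: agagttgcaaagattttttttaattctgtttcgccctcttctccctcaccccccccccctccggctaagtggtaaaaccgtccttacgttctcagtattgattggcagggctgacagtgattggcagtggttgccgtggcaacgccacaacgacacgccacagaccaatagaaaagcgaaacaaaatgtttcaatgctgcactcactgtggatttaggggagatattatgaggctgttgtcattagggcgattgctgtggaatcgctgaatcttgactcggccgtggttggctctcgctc
Gad1, which encodes an enzyme of GABA synthesis (chr2:70561879-70562178, plus strand), held 1 GC box and 1 TATA box (TATAAA), with its peak 40 bp upstream.
Gad1: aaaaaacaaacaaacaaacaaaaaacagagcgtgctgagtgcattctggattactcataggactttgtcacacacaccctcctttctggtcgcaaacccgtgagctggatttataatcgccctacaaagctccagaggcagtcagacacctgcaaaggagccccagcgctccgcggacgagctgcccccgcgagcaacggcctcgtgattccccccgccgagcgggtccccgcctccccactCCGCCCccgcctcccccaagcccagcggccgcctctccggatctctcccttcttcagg
Gad2, the other gene of GABA synthesis (chr2:22622077-22622376, plus strand), held no GC box and 2 CCAAT boxes, with its peak 20 bp downstream.
Gad2: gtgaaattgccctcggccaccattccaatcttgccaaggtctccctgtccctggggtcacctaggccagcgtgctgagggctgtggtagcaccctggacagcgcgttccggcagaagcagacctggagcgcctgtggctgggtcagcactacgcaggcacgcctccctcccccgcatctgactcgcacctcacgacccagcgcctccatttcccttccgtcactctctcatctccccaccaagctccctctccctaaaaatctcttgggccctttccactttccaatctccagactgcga
Of these 9 promoters 6 held a GC box and 3 did not. In Fbxo30 the boxes began 220, 46, 42, 38 and 4 bases upstream of the start, in Slc4a3 190 and 44 bases upstream, and in Med4 46 bases upstream. Those of Hdac5, Snx18 and Gad1 began 94, 23 and 8 bases upstream.

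The edges of the rule are soft. Just inside the 1000 bp limit were Zfp740, a zinc finger gene with a peak 992 bp upstream, and Maged2, a MAGE family gene with a peak 990 bp downstream. Just outside it were peaks of Mn1, 1014 bp upstream, and 4930402H24Rik, 1018 bp downstream. At the matching limit, D930015E06Rik was kept with an E16.5 peak 219 bp upstream and an E13.5 peak 18 bp upstream, just past the limit. Scfd1, a gene of vesicle fusion, was kept in the same way, with an E16.5 peak at 22 bp and an E13.5 peak at -179 bp. Cited2, a transcriptional co-regulator with an E16.5 peak at -198 bp and an E13.5 peak at -1 bp, was counted as found at both stages, as was Usp53, with an E16.5 peak at 89 bp and an E13.5 peak at -105 bp. The label "E16.5 only" therefore holds for the place and not always for the promoter: 51 of the 1089 peaks (4.68%, 3.58 to 6.11) lay at a gene that also had an E13.5 peak within 1000 bp of its TSS, more than 200 bp from the E16.5 one.

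The E16.5 list held more promoter peaks altogether. Single-gene promoter peaks made up 1625 of 6022 peaks at E16.5 (27.0%, 25.9 to 28.1), against 855 of 5847 at E13.5 (14.6%, 13.7 to 15.6). Of the 1625, 1089 were E16.5-only (67.0%, 64.7 to 69.3) and 536 were matched at E13.5 (33.0%, 30.7 to 35.3), here called both-stage peaks. Of the 855 E13.5 ones, 322 had no E16.5 match (37.7%, 34.5 to 41.0). A further 263 E16.5 promoter peaks with 2 or more genes in reach were left out by the rule. Stage, library depth and the yield of the immunoprecipitation cannot be told apart here.

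The TSS distance is a value the rule used, so positions are given as a description within its limits. The median signed distance of E16.5-only peaks was -35 bp (95% interval -47 to -24, negative meaning upstream), with quartiles at -131 and 63 bp. The both-stage peaks, by their E16.5 position, had a median of -69 bp (-88 to -51) and quartiles at -175 and 29 bp. The E13.5-only promoter peaks had a median of -71 bp (-100 to -52). The interval of the E16.5-only median does not overlap either of the others. Taken without sign, the median distance was 98 bp (91 to 109) for E16.5-only, 121 bp (108 to 132) for both-stage and 143 bp (125 to 166) for E13.5-only peaks, and the intervals of the E16.5-only and both-stage peaks just overlap.

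**Figure D1:**
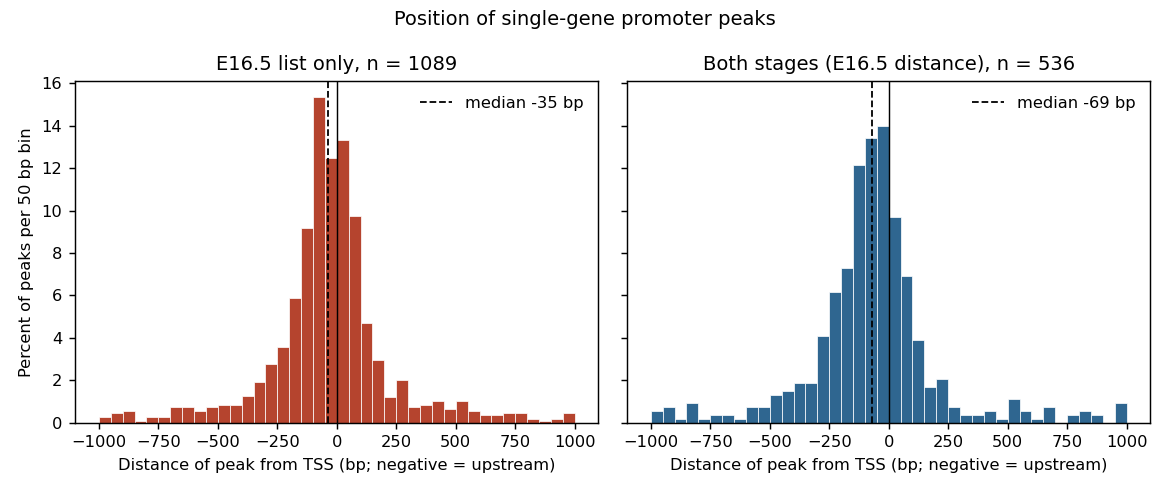
Share of peaks, in percent, in 50 bp bins of the signed distance from the TSS (x axis, in bp). One panel holds the 1089 E16.5-only promoter peaks and the other the 536 both-stage ones, by their E16.5 distance. The E16.5-only peaks have their highest bin, 15.3%, at 100 to 50 bp upstream, and 13.3% in the first 50 bp downstream.

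Within 100 bp of the TSS lay 554 of the 1089 E16.5-only peaks (50.9%, 47.9 to 53.8), 237 of 536 both-stage peaks (44.2%, 40.1 to 48.5) and 117 of 322 E13.5-only peaks (36.3%, 31.3 to 41.7). Within 500 bp the shares were 91.2%, 90.1% and 88.5%, with overlapping intervals. At 100 bp the E16.5-only interval overlaps that of the both-stage peaks and lies above that of the E13.5-only peaks. Upstream of the TSS lay 58.8% (55.8 to 61.7) of E16.5-only peaks, 68.7% (64.6 to 72.4) of both-stage peaks and 67.1% (61.8 to 72.0) of E13.5-only peaks. As a measure of how well a position repeats between the lists, the paired peaks of both stages lay a median of 58 bp apart, and 75.2% of the pairs lay within 100 bp. The median signed difference of a pair, E16.5 minus E13.5, was 5 bp. The differences in median between the classes describe whole distributions and not single genes. Peaks that the authors' list divides into lettered entries made up 2.57% of E16.5-only peaks, 2.99% of both-stage peaks and 2.71% of all E16.5 peaks.

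Of the 1069 gene names matched to the gene table, 1063 were protein-coding, which is 4.85% of the 21900 protein-coding genes of the table. Of the rest, 5 were long non-coding RNA genes and 1 was a transcribed pseudogene, BC025920. The non-coding genes were 3110021A11Rik (66 bp), 4922502B01Rik (57 bp), A730013G03Rik (-276 bp), 2900060B14Rik (-688 bp) and AY702102 (694 bp). Both-stage promoter peaks lay at 2.38% of protein-coding genes. Of the 1069 matched genes, 4 also had a both-stage promoter peak and 44 an E13.5-only one. Among the 21900 protein-coding genes, 521 and 314 had such peaks. The rule chose members by the E13.5 distances of their genes, so these overlaps are limited by it and are no finding.

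Over genes of cellular machinery the share with an E16.5-only peak was above the 4.85% of all protein-coding genes, while the lists of receptors, channels and adhesion genes had shares under it. In 22 of 36 gene lists the share was above 4.85%, but in only 9 did the whole interval lie above it, and 10 lists had no member. Over 13 machinery lists together, a grouping made after their values were seen, 116 of 1276 genes had an E16.5-only promoter peak (9.09%, 7.63 to 10.8). A both-stage promoter peak was held by 68 of the same genes (5.33%, 4.23 to 6.70), against 2.38% of all protein-coding genes. The machinery genes were thus above all protein-coding genes for both classes. That background holds 1460 olfactory and vomeronasal receptor genes, none of them a member. Among genes with 1 annotated start, 579 E16.5-only promoters were CpG-rich, as defined below, beside 5929 of all protein-coding promoters. Whether machinery genes differ from other genes with CpG-rich promoters was not tested. Peaks of the 116 genes lay a median of 84 bp from the TSS.

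**Figure D2:**
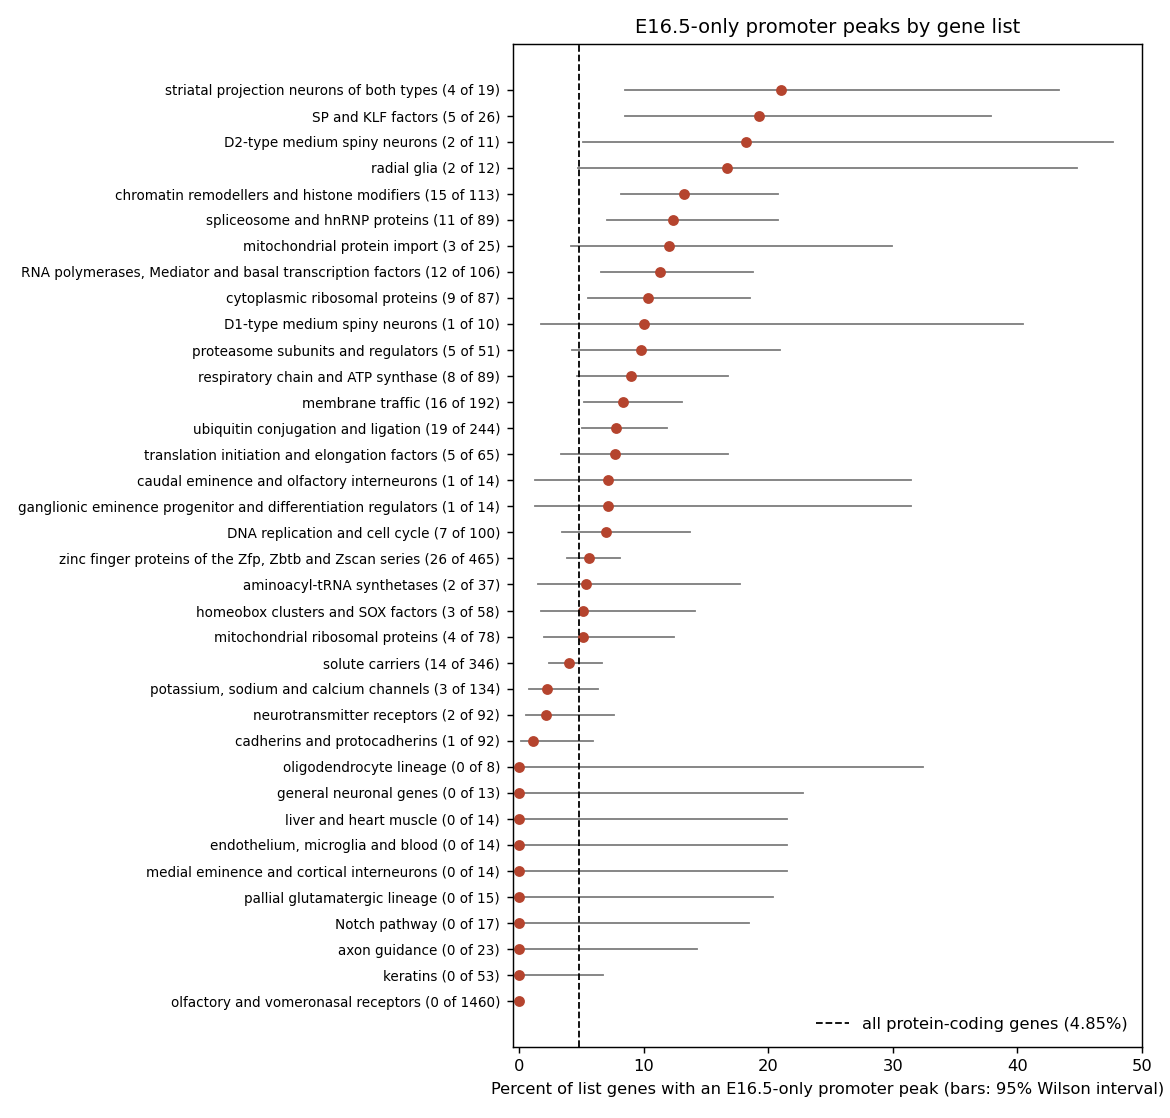
Percent of the genes of each list with an E16.5-only promoter peak (x axis), with 95% Wilson intervals as bars, for lists of this tissue's cell types and of common cell functions. The line marks the 4.85% of all 21900 protein-coding genes. The chromatin list stands at 13.3%, the channel list at 2.24%.

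Among the lists of over 50 genes, the largest shares were those of chromatin, spliceosome and transcription machinery genes. Of 113 chromatin remodeller and histone modifier genes, 15 were members (13.3%, 8.21 to 20.8). They included Hdac5, the histone demethylase gene Kdm3b with a peak 64 bp upstream, the arginine methyltransferase gene Prmt2 at -78 bp, and Smarcc1, a core subunit of the BAF remodelling complex, at -91 bp. Of 106 genes of RNA polymerases, Mediator and basal factors, 12 were members (11.3%, 6.60 to 18.8), 4 of them the Mediator subunits Med4 (21 bp), Med26 (-34 bp), Med18 (-44 bp) and Med17 (-61 bp). Of 89 spliceosome and hnRNP genes, 11 were members (12.4%, 7.04 to 20.8). Among these were Snrpc of the U1 particle at 17 bp, Sf3b1, which helps choose the branch point, at 36 bp, Hnrnpa3 at 39 bp and the SR protein gene Srsf9 at -47 bp. In these lists 11 of 15, 9 of 12 and 8 of 11 member genes had no E13.5 peak assigned to them at any distance, close to the 70.9% of all E16.5-only peaks.

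Protein synthesis and breakdown followed. Of 87 cytoplasmic ribosomal protein genes, 9 were members (10.3%, 5.54 to 18.5). The nearest to their TSS were Rps7 at -17 bp, Rps10 at -44 bp, Rpl23 at -49 bp and Rps15 at -55 bp. Members made up 5 of 51 proteasome genes (9.80%, 4.26 to 21.0), with a median distance of only 23 bp. They included Psmb6 of the catalytic core (6 bp), the ATPase gene Psmc3 (23 bp), and Psmd2 (19 bp) and Psmd12 (30 bp) of the regulatory particle. Of 244 ubiquitin conjugation and ligation genes, 19 were members (7.79%, 5.04 to 11.8). Besides Fbxo30 these included another F-box gene, Fbxo34, at 3 bp, the ligase scaffold gene Cul2 at 9 bp and the ligase gene Rnf111 at 18 bp. Translation factors had 5 members of 65 (7.69%, 3.33 to 16.8), among them Eef1a1, which delivers aminoacyl-tRNA to the ribosome, at -114 bp, Eef1g at 84 bp, Eif5 at -90 bp and Eif3f at -106 bp. Among 37 aminoacyl-tRNA synthetase genes only Gars (-52 bp) and Pars2 (-181 bp) were members, 5.41%, which is near the 4.85% of all genes.

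The mitochondrial lists had different shares, but their intervals overlap one another and each holds the 4.85% of all protein-coding genes. Of 89 respiratory chain and ATP synthase genes, 8 were members (8.99%, 4.63 to 16.8), with a median distance of 53.5 bp. They included Ndufv1 (2 bp) and Ndufb6 (-11 bp) of complex I, the Rieske protein gene Uqcrfs1 (24 bp) and Atp5g3 (3 bp), which encodes the rotor ring subunit of ATP synthase. Of 25 import genes, 3 were members, the translocase subunits Tomm7 (-3 bp), Tomm70a (-139 bp) and the channel gene Tomm40 (-393 bp), or 12% (4.17 to 30.0). Mitochondrial ribosomal proteins, with 4 of 78 genes (5.13%, 2.01 to 12.5), were near the background. These were Mrpl17 (-37 bp), Mrpl2 (-54 bp), Mrps14 (-74 bp) and Mrpl48 (164 bp).

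Membrane traffic genes had 16 members of 192 (8.33%, 5.19 to 13.1), among them the sorting nexins Snx18 (0 bp), Snx30 (-3 bp) and Snx11 (-28 bp), and Rab35, a small GTPase of endosomal recycling (-32 bp). Here 8 of the 16 member genes had no E13.5 peak. DNA replication and cell cycle genes had 7 members of 100 (7%, 3.43 to 13.8) and as many both-stage genes. They included the polymerase delta genes Pold1 (52 bp) and Pold3 (72 bp), the cyclin gene Ccna2 (83 bp) and the clamp loader gene Rfc1 (83 bp). None of the 7 had an E13.5 peak, where 70.9% of all E16.5-only peaks lay at genes without one. The rule used the E13.5 distances, so this count and that of the membrane traffic genes are no finding about these lists.

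Other transcription factor genes were nearer to the background, apart from the SP/KLF family. Of 465 Zfp, Zbtb and Zscan genes, 26 were members (5.59%, 3.84 to 8.07), among them Zbtb22 (17 bp), Zfp521 (22 bp), Zfp281 (-56 bp) and Zfp560 (57 bp). Of the homeobox cluster and SOX genes, 3 of 58 were members (5.17%, 1.78 to 14.1): Sox2, a regulator of neural progenitors (-137 bp), Hoxc13 (-172 bp) and Sox12 (754 bp). Of 26 SP and KLF genes, the family of Sp9 itself, 5 were members (19.2%, 8.51 to 37.9) and 4 had a both-stage promoter peak. The members were Klf4 (-121 bp), Klf10 (-218 bp), Klf3 (-251 bp), Klf16 (-309 bp) and, named after its values were seen, Klf7 (-357 bp). Klf16 alone of these had no E13.5 peak. Klf7 had an E13.5 peak 673 bp upstream, so its E16.5 peak was 1 of the 51 peaks whose gene had an E13.5 promoter peak elsewhere.

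Genes of the cell surface had few. Of 134 potassium, sodium and calcium channel genes, 3 were members (2.24%, 0.764 to 6.38): the calcium channel subunit genes Cacna2d1 (45 bp) and Cacnb3 (113 bp) and the background potassium channel gene Kcnk10 (-552 bp). Of 92 neurotransmitter receptor genes, 2 were members (2.17%, 0.598 to 7.58), among them the kainate receptor gene Grik3 (-271 bp). Of 92 cadherin and protocadherin genes, Cdh2, which encodes N-cadherin, was the single member (1.09%, 0.192 to 5.90), at 674 bp. Solute carriers had 14 of 346 (4.05%, 2.43 to 6.68), among them Slc4a3 (10 bp), the mitochondrial carrier gene Slc25a16 (41 bp), the phosphate transporter gene Slc20a1 (-42 bp) and the cationic amino acid transporter gene Slc7a2 (-66 bp). No member was found among 1460 olfactory and vomeronasal receptor genes, which allows a share of up to 0.262%, nor among 53 keratin genes, which allows up to 6.76%. Of these 6 lists, the olfactory one alone had an interval wholly under 4.85%.

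The striatal lists were short and had few members each. The list of striatal projection neurons of both types had 4 members of 19 (21.1%, 8.51 to 43.3), and 2 with a promoter window of 500 bp. The 4 were Gad2, Gad1, the striatal phosphodiesterase gene Pde10a with a peak 673 bp upstream, and the homeobox gene Meis2 with a peak 938 bp upstream. The D2-type list had Six3 and Grik3 (2 of 11, 18.2%, 5.14 to 47.7), and the D1-type list had Zfp521 alone (1 of 10, 10%, 1.79 to 40.4). With the 1000 bp window, the list of both types and the D2-type list were among the 9 whose interval lay above 4.85%. Radial glia had Sox2 and the glutamine synthetase gene Glul, with a peak at -57 bp (2 of 12, 16.7%, 4.70 to 44.8). The ganglionic eminence list had 1 member of 14 beside 2 genes with a both-stage promoter peak. The caudal eminence list had 1 of 14, the nuclear receptor gene Nr2f1, at -871 bp. Medial eminence and cortical interneurons (14 genes), axon guidance (23), general neuronal genes (13), the pallial lineage (15) and the Notch pathway (17) had none. A count of 0 in a list of 14 allows a share of up to 21.5%, which holds the 4.85% of all genes.

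No member stood among the markers of other cell types, at a list size that cannot tell this from the background. Of 36 genes marking oligodendrocytes, endothelium, microglia and blood, or liver and heart muscle, none had an E16.5-only promoter peak, which allows up to 9.64% and so holds the 4.85% of all genes. An E13.5 peak at some distance was assigned to 7 of the 36 (19.4%), near the 20.7% of all protein-coding genes. A peak shows binding and not expression, so these lists describe the promoters and do not measure the cells present.

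Most E16.5-only promoter peaks were the single peak of their gene. Of the 1089, 710 (65.2%, 62.3 to 68.0) lay at a gene with no other peak in either list. A further 174 (16%, 13.9 to 18.3) lay at genes with other peaks, none of which recurred, where recurring means that 1 gene had an E16.5 and an E13.5 peak at TSS distances within 200 bp. The remaining 205 (18.8%, 16.6 to 21.3) lay at genes with at least 1 recurring peak elsewhere. Among both-stage promoter peaks, 323 of 536 (60.3%, 56.1 to 64.3) had no other peak and 136 (25.4%, 21.9 to 29.2) had a recurring one. Within 50 kb of the TSS, another E16.5 peak was found for 15.2% of E16.5-only and 16.4% of both-stage peaks, with overlapping intervals.

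**Figure D3:**
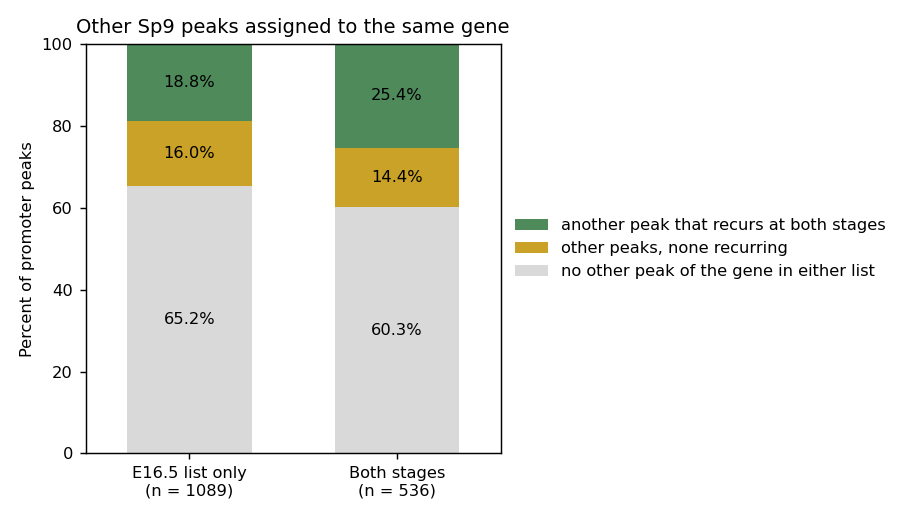
Share of promoter peaks, in percent, whose gene had no other peak, other peaks that do not recur, or a recurring peak elsewhere, for E16.5-only and both-stage promoter peaks. With a recurring peak stand 18.8% of E16.5-only and 25.4% of both-stage promoter peaks.

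A smaller share of the other peaks of these genes recurred. Counting each E16.5 peak once, and only those over 1000 bp from every TSS, 347 of 592 recurred at E13.5 where the gene had an E16.5-only promoter peak (58.6%, 54.6 to 62.5). At genes with a both-stage promoter peak 287 of 378 did (75.9%, 71.4 to 80.0). Over all such E16.5 peaks 2755 of 4134 recurred (66.6%, 65.2 to 68.1). The 3 intervals do not overlap, and the last count holds the first 2. The intervals treat peaks of the same gene as independent, while some genes held many. Sox2 had 16 other E16.5 peaks, of which 10 recurred, and Cd244 had 11, of which 1 did. Whether the separation holds without such genes was not tested.

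By the distance of the nearest E13.5 peak of the same gene, 772 E16.5-only peaks had none (70.9%, 68.1 to 73.5) and 40 had one at over 200 and up to 500 bp (3.67%). It lay at over 500 and up to 1000 bp for 16 (1.47%), at 1 to 5 kb for 25 (2.30%), at 5 to 50 kb for 97 (8.91%) and farther for 139 (12.8%). Distant peaks were assigned only to the genes that flank them, so the shares with distant peaks also reflect that assignment.

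By company, the position of the peaks differed. Other peaks inside the promoter window can leave less room near the TSS, and their part in this was not tested. Where the gene had no other peak, 393 of 710 lay within 100 bp of the TSS (55.4%, 51.7 to 59.0) and the median absolute distance was 89 bp (83 to 97). With a recurring peak elsewhere, 90 of 205 did (43.9%, 37.3 to 50.8), and with other peaks that did not recur, 71 of 174 did (40.8%, 33.8 to 48.2). Without genes that had another peak within 1000 bp of the TSS, a choice made after seeing the data, the last 2 shares were 46.7% (39.7 to 53.9) and 45.5% (37 to 54.3). Both shares stayed under the 55.4% of peaks without company, with intervals that overlap its interval, and the difference was not tested.

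Of the 116 machinery members 88 had no E13.5 peak of any kind (75.9%, 67.3 to 82.7), an interval that holds the 70.9% of all E16.5-only peaks. Of the 11 members in the 11 neural lineage and signalling lists, a grouping also made after values were seen, 2 had none (18.2%, 5.14 to 47.7): Pde10a and Glul, which had no other peak in either list. Over the lists as a whole, an E13.5 peak at some distance was assigned to 24.1% of machinery genes, 69.9% of the 156 neural genes and 20.7% of all protein-coding genes. What sets these shares apart was not tested. The neural lists as a group had 11 members of 156 genes (7.05%, 3.98 to 12.2), an interval that holds the 4.85% of all protein-coding genes. A both-stage promoter peak was held by 10 of the 156 (6.41%, 3.52 to 11.4), against 2.38% of all protein-coding genes.

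Of the striatal genes, Six3, Gad2 and Gad1 had recurring peaks besides the E16.5-only promoter peak, at different distances. Six3 had 4 E16.5 peaks, at -226673, -158369, -91865 and -5 bp, and 5 E13.5 peaks, at -243398, -226633, -158325, -112839 and -92082 bp. The peaks near -227 and -158 kb recurred, and those near -92 kb lay just over 200 bp apart, so they were not counted. Gad2 had E16.5 peaks at -262086, -26924, -1994, 20 and 122811 bp, against E13.5 peaks at -306511, -262082 and -1985 bp. The peak just upstream of its promoter was thus in both lists and the one at the TSS in the E16.5 list. Gad1 had E16.5 peaks at -40, 2401 and 6185 bp, against 1 E13.5 peak, at 2428 bp, which the one at 2401 bp matched.

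Grik3 had 9 E16.5 and 9 E13.5 peaks, of which 7 recurred, from -295705 to 113882 bp at E16.5, while the peak at -271 bp did not. Zfp521 had 6 E16.5 and 7 E13.5 peaks, and the E16.5 ones at 6555, 42606 and 162585 bp recurred. Klf4 had 3 recurring peaks, at -878985, -396988 and 116405 bp, besides the promoter peak at -121 bp. Klf10 had E16.5 peaks at -218 and 1280 bp against 1 E13.5 peak at 1712 bp, none of them recurring.

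**Figure D4:**
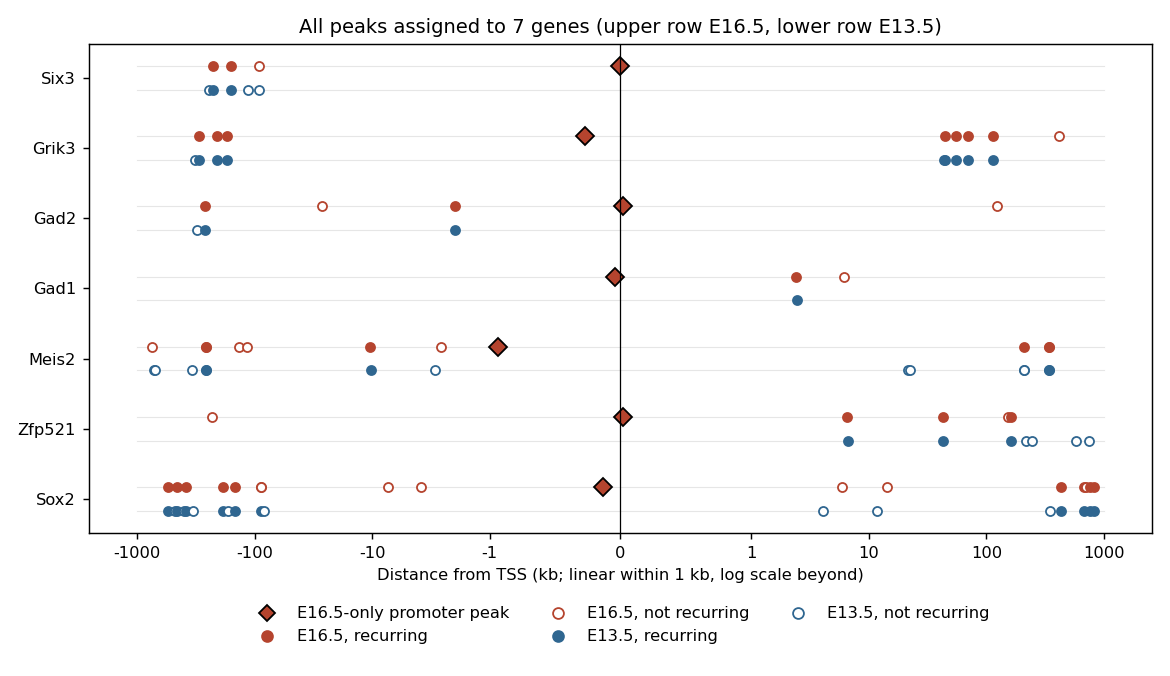
Peaks of Six3, Grik3, Gad2, Gad1, Meis2, Zfp521 and Sox2 in the E16.5 list (upper row of each gene, red) and the E13.5 list (lower row, blue), by signed distance from the TSS in kb, on an axis that is linear near the TSS and logarithmic beyond. Diamonds mark the E16.5-only promoter peaks, filled circles recurring peaks and open circles the others. Every one of the 7 genes has filled circles besides its diamond, such as those of Grik3 at 7 places.

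Genes were also ranked by recurring peaks at any distance, a ranking chosen after values were seen. Sox2 came first, with 16 other E16.5 peaks, 18 E13.5 peaks and 10 recurring ones assigned to it. The recurring one nearest to its TSS lay at -88431 bp. Then came Celf4, a neuronal RNA-binding protein gene (promoter peak at -296 bp, 8 recurring), Atp5g3 (7) and Grik3 (7). Meis2, Qk, an RNA-binding protein gene with a peak at 402 bp, Slc4a3 and the zinc finger homeobox gene Tshz3 (-281 bp) had 6 each. Atp5g3 was the single gene of the machinery lists among these 8. Within 50 kb of the TSS, Celf4, Atp5g3, Qk and Slc4a3 had 0 other E16.5 peaks. Grik3 and Tshz3 had 1 each, Meis2 had 2 and Sox2 had 4. The genes with the most other E16.5 peaks within 50 kb were of another kind. Cd244, an immune receptor gene (-288 bp), had 11, against 5 E13.5 peaks and 1 recurring. Mroh2a (-489 bp) had 10 and no E13.5 peak, and the sensory receptor gene Mrgpra3 (-93 bp) had 8 against 4. Hjurp, a centromere histone chaperone gene (723 bp), had 7 against 1. The promoter peaks of Mroh2a and Hjurp are numbered 187 and 195 in the E16.5 list. Their other peaks may thus be the same ones in part, and the 2 genes may not be separate cases.

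Promoters with an E16.5-only peak were rich in GC and CpG, and in this they were like those with a both-stage peak. Sequence was compared over genes with exactly 1 annotated start in the RefSeq table, 692 E16.5-only and 331 both-stage genes among 14731 protein-coding ones. Median GC content was 65.7% in E16.5-only, 65.3% in both-stage and 55.7% in all promoters. The ratio of observed to expected CpG was 0.866, 0.844 and 0.559. With CpG-rich set as at least 55% GC and a ratio of at least 0.6, 83.7% of E16.5-only promoters were CpG-rich (80.7 to 86.2), 85.2% of both-stage promoters (81.0 to 88.6) and 40.3% of all promoters (39.5 to 41.0). Sequence was not used to choose the peaks.

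The GC box, searched on both strands as GGGCGG, was held by 80.6% of E16.5-only promoters (77.5 to 83.4), 85.2% of both-stage promoters (81.0 to 88.6) and 45.3% of all promoters. Of all 5929 CpG-rich promoters 80.2% held it (79.2 to 81.2), but not all promoters of the peak classes are CpG-rich. Within CpG-rich promoters alone, a comparison added after the first values were seen, the shares were 86.5% in E16.5-only (83.5 to 89.1, n = 579), 92.9% in both-stage (89.3 to 95.4, n = 282) and 78.4% in CpG-rich promoters of genes in neither list (77.0 to 79.7, n = 3489). These 3 intervals do not overlap. Composition was not equal among these 3 groups, with median GC contents of 67.3%, 66.7% and 64.7% and CpG ratios of 0.887, 0.859 and 0.834. Its part in the GC box shares was not tested. On the gene's own strand alone the shares were 54.9% (51.2 to 58.6) in E16.5-only and 65.0% (59.7 to 69.9) in both-stage promoters, again without overlap. The longer form GGGCGGG, which contains the GC box, was held by 64.7%, 69.2% and 33.1% of E16.5-only, both-stage and all promoters. The CACCC box (CCACCC) was held by 37.4%, 39.3% and 32.0%.

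**Figure D5:**
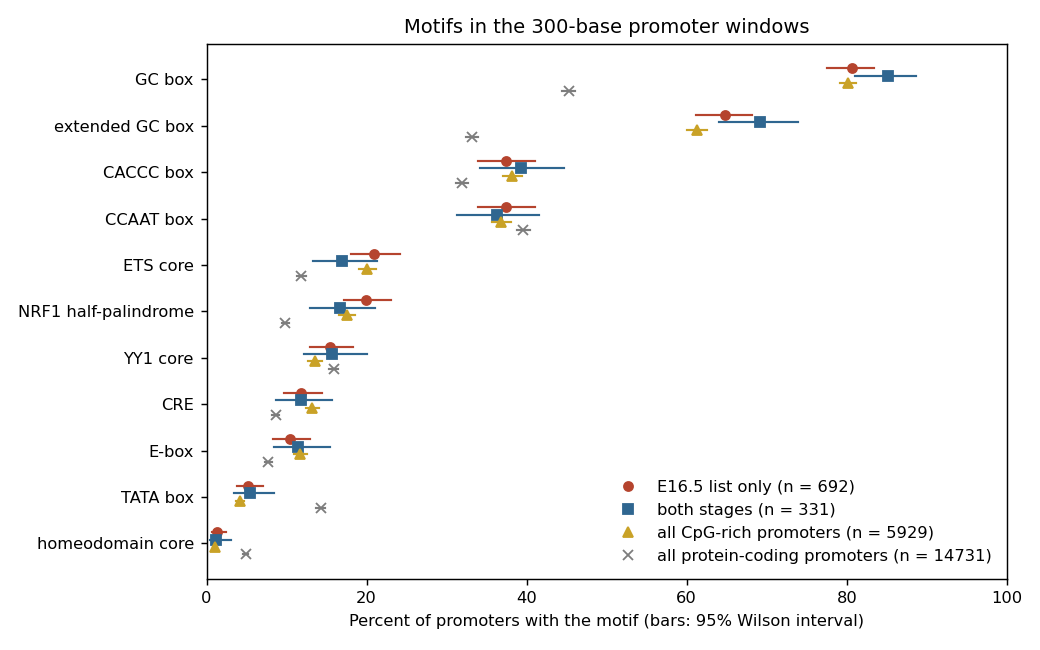
Percent of promoters holding each motif (x axis), with 95% Wilson intervals, for E16.5-only, both-stage, all CpG-rich and all protein-coding promoters. The GC box stands at 80.6%, 85.2%, 80.2% and 45.3%. The TATA box is lower in both peak classes than in all promoters, and stands at 4.2% in all CpG-rich ones.

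In E16.5-only promoters GC boxes lay most often 50 to 26 bases upstream of the start, where 26.0% of promoters held one, against 29.6% of both-stage and 13.7% of all promoters. The bins next to it held one in 24.9% (75 to 51 bases upstream) and 24.4% (25 to 1 bases upstream) of E16.5-only promoters. Of the boxes printed above, that of Med4, 1 of those of Slc4a3 and 3 of those of Fbxo30 begin in the highest bin. The E16.5-only peaks themselves were also most common in the 100 bp upstream of the TSS.

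For the motifs of other promoter factors, values follow for E16.5-only, both-stage and all CpG-rich promoters. The ETS core was held by 21.0% of E16.5-only promoters (18.1 to 24.1), 16.9% of both-stage promoters (13.3 to 21.3) and 20.1% of CpG-rich promoters. The NRF1 half-palindrome was held by 19.9% (17.1 to 23.1), 16.6% (13 to 21) and 17.5% (16.6 to 18.5). Among CpG-rich promoters alone it was held by 21.9% of E16.5-only (18.8 to 25.5), 18.1% of both-stage (14 to 23) and 16.6% of promoters of genes in neither list (15.4 to 17.9), and the first and last of these intervals do not overlap. The GC box, its longer form and the NRF1 half-palindrome were the 3 of 11 motifs whose CpG-rich E16.5-only interval did not overlap that of genes in neither list. The YY1 core (CCATNTT) was held by 15.5%, 15.7% and 13.6%, the CCAAT box (CCAAT) by 37.4%, 36.3% and 36.9%, the CRE (TGACGT) by 11.8%, 11.8% and 13.2%, and the E-box (CACGTG) by 10.4%, 11.5% and 11.7%. The TATA box was held by 5.2% of E16.5-only, 5.44% of both-stage, 4.2% of CpG-rich and 14.3% of all promoters. For the homeodomain core (TAATTA) the shares were 1.30%, 1.21%, 1.05% and 4.88%. For both motifs the intervals of the peak classes overlap that of CpG-rich promoters. With both strands searched and all promoters of each class counted, the E16.5-only and both-stage intervals overlap for every motif, the GC box included. A match describes letters in a window of 300 bases and not a bound site.

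Among E16.5-only promoters, those whose peak was the only one of its gene held the CRE in 14.4% (11.5 to 17.9, n = 472), against 5% (2.31 to 10.5, n = 120) where the gene had a recurring peak elsewhere. Those intervals do not overlap, out of 11 motifs compared. The ETS core stood at 23.1% and 15.0%, the YY1 core at 18.9% and 11.7% and the GC box at 81.8% and 78.3%, all with overlapping intervals.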

How the data were processed

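Sp9 ChIP-seq peak lists from 1 library per stage (E16.5 and E13.5) were used. Per the file names, the authors compared each ChIP library with its input. MACS2 2.1.0, BWA 0.6.2, bcl2fastq 1.8.4, CASAVA 1.8.2 and build mm9 are named in the submitters' processing notes without roles, and no source used here gives the peak threshold. The authors assigned peaks to genes by regulatory domains reaching 5000 bp upstream and 1000 bp downstream from a TSS, with an extension of up to 1000000 bp and curated domains, per the file headers. What they deposited has no unit of its own, peak numbers beside signed TSS distances. Depth and peak height are unknown, so precision rests on the number of peaks or genes.

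Peaks sharing a number were counted once. A few genes have several rows, 1 per TSS, and the distance in every row was used. Names were matched to the GRCm38.p6 gene table: 1069 of 1076 matched, 63 through a synonym. Promoter sequence came from the RefSeq table of that build, for 692 genes with exactly 1 start there. Shares carry 95% Wilson intervals and medians order-statistic intervals. No test was run. The selection of peaks was tested on simulated data. Python 3.11.15, numpy 2.4.6, scipy 1.17.1 and matplotlib 3.10.9 were used.

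The members, gene lists and motifs were chosen with earlier results of these data known. Up to 4 genes per list were named, those with the peak nearest to the TSS. The genes at the edges of the rule and the 4 with the most other E16.5 peaks within 50 kb were named besides. Genes given with all their peaks, the ranking by recurring peaks and Klf7 were chosen after their values were seen. For a few list genes, no value is reported here. The alternatives were other matching distances, promoter windows, gene rules, backgrounds, search windows and strands.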

Additional observations from a re-analysis of the deposited data

How the results depend on the processing

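Over 8 alternatives the number of E16.5-only promoter peaks ranged from 1014, with a promoter window of 500 bp, to 1260, with more than 1 gene allowed per promoter. Matching within 100 bp gave 1222 and within 1000 bp 1033. The median position was -34 bp with matching within 500 bp and -30 bp with more than 1 gene allowed. The share of promoters with a GC box moved to 62.0% in E16.5-only and 66.8% in both-stage promoters when only the 100 bases upstream of the start were searched. On the given strand alone it was 54.9% and 65.0%, and in CpG-rich promoters alone, chosen after seeing the data, 86.5% and 92.9%. The intervals of both classes do not overlap under these last settings and overlap under the others. The share of E16.5-only peaks with another E13.5 peak of the gene was 16.4% within 50 kb, against 29.1% at any distance.

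The number of lists whose share was above the background ranged from 18 to 22, counted without regard to intervals. Whether the 9 lists with intervals above 4.85% would also clear the share of genes named in either list was not examined. Of the counts and shares of single lists 99 stayed within their limits and 8 moved. With a 500 bp window the list of striatal projection neurons of both types had 2 members, against 4 within 1000 bp. Against the 17.4% of genes named in either list, mitochondrial ribosomal proteins (16.7%), the ganglionic eminence (8.33%), D1-type (14.3%) and caudal eminence (8.33%) lists were no longer above the background. No paired analysis was possible because each stage has 1 ChIP library, and no library could be left out. Without peak heights and depth, no share could be set against the strength of the peaks.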
